A study of Mus musculus with 24 samples.

Results

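The TRAV9 family holds the variable (V) segments named TRAV9-, TRAV9D- and TRAV9N- of the mouse T cell receptor (TCR) alpha locus, and its rearranged chains were followed across 24 tumors of 12 mice. Members were the sequences of the TCR alpha tables whose V segment carried one of these names, with no stop mark and at least 2 counts. A clonotype was a combination of CDR3 amino acid sequence, V segment and joining (J) segment. By this rule 3357 of the 35452 distinct clonotypes were members (9.47%), drawn from 5362 of 55689 retained sequences, and they held 430516 of 4769624 counts (9.03%). They were spread over 11 segments.

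Female BALB/c mice, 7 to 9 weeks old, carried a CT26.CL25 colon carcinoma in each flank, and RNA of each whole tumor was sequenced as 1 TCR library. In the time-matched group (mice 6, 12 and 14) both tumors were taken on day 13 with no treatment. In the other 3 groups the tumors were taken 11 days apart, on days 9 and 20, and these are called time-separated: mice 4, 17 and 19 were untreated, mice 3, 11 and 20 received 0.5 mg/kg decitabine, and mice 7, 10 and 16 received 2 mg/kg. Decitabine, an inhibitor of DNA methylation, was given into the peritoneum on 5 consecutive days from 3 days after removal of the first tumor, and the second tumor was taken 4 days after the last dose. The first tumor of a decitabine mouse was therefore untreated, and a mean over both tumors of such a mouse mixes an untreated and a treated tumor. The labels number the tumors 1 and 2 without saying which was taken first, so differences between tumors have no direction in time. Retained counts per tumor ranged from 26623 to 846655, with a median of 159256. The median was 292692 in time-matched tumors, 101743 in untreated time-separated tumors, 84301 at 0.5 mg/kg and 214354 at 2 mg/kg, so depth moved with the groups. Thinning all libraries to the smallest left the difference in the TRAV9 share of counts at 14.7 percentage points between the doses and at -2.11 between time-matched and time-separated mice, the values without thinning being 14.8 and -2.11. Random thinning leaves a share of counts unchanged apart from sampling error. These values therefore could not show whether depth bore on the differences between groups. Counts of clonotypes found in several mice were not thinned. In whole-tumor RNA, more T cells of a clone and more receptor RNA per cell cannot be told apart.

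An alpha chain forms when 1 V segment is joined to 1 J segment in a developing T cell, with bases trimmed and added at the junction. The junction lies in the third complementarity-determining region (CDR3), the loop that mostly contacts the antigenic peptide, and all descendants of a T cell carry the same one. The alpha locus of the mouse holds duplicated blocks of V segments, marked D and N in segment names, so that a family such as TRAV9 has near-identical copies. RefSeq lists 11 Trav9 symbols on chromosome 14 (GRCm38.p6), in the order 9d-1 to 9d-4, 9n-1 to 9n-4, 9-1, 9-2 and 9-4. Of the 11 segments with members, 10 matched a symbol and TRAV9-3 did not, while Trav9n-1 had no member.

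The stretch of V segment that each sequence covers is shown first, because it sets how well the copies can be told apart. The last 34 bases before the CDR3 were the same in the commonest form of the 6 segments with enough sequences for a consensus, at 87.7% to 100% of the sequences of each segment:
Bases before the CDR3: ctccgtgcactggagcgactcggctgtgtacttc
The CDR3 starts below are the consensus bases of each segment. Capitals mark the bases that differ between segments, or that the consensus of a single segment reaches.
TRAV9-1: tgtgctGTgagcG
TRAV9-2: tgtgctGCgagcA
TRAV9-3: tgtgctGTgagcA
TRAV9-4: tgtgctGTgagcAT
TRAV9D-1: tgtgctGCgagcA
TRAV9D-4: tgtgctCTgagcG
TRAV9-2 and TRAV9D-1 had the same consensus, and TRAV9-3 and TRAV9-4 differed only in how far theirs reached. The capitals near the start change the residue after the opening cysteine and alanine, which is valine in TRAV9-1, TRAV9-3 and TRAV9-4, alanine in TRAV9-2 and TRAV9D-1, and leucine in TRAV9D-4. Of 4937 CDR3 nucleotide sequences counted per tumor, 234 (4.74%) were listed under more than 1 TRAV9 segment, most often TRAV9-3 with TRAV9-4 (80 sequences) and TRAV9-1 with TRAV9-3 (72). These 234 included the abundant ones and held 53.7% of TRAV9 counts, but only 1.97% of TRAV9 counts lay outside the main segment of their sequence. Values for single segments are therefore uncertain between copies, and the family was the main unit.

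A second property of the tables bears on numbers of clonotypes. Of the 5362 TRAV9 sequences, 2789 (52%) differed by 1 base from a sequence with at least 20 times the counts in the same tumor, with the same V, J and length. They held 4.35% of TRAV9 counts. In other families such neighbours made up 45.2% of sequences and 4.53% of counts. Merging them into the larger sequence left 1922 TRAV9 clonotypes. The step was added after the data were seen, and values with it are given beside the results on clonotypes below. Whether the neighbours came from separate T cells was not tested.

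TRAV9-1, TRAV9D-4, TRAV9-2 and TRAV9-3 together made up almost the whole family. TRAV9D-4 held 38.4% of TRAV9 counts but 19.3% of its clonotypes, while TRAV9-1 held 36.3% of counts and 39.3% of clonotypes. These are pooled over all tumors and rest on mouse 16: without it TRAV9D-4 held 18.9% of TRAV9 counts and 15.1% of clonotypes, and TRAV9-1 held 53.7% and 43.4%. TRAV9-2 held 11.7% of counts and 19.7% of clonotypes, and TRAV9-3 held 11.1% and 14.9%. These 4 segments were found in all 24 tumors. TRAV9-4 (1.77% of TRAV9 counts) was found in 22 tumors and TRAV9D-1 (0.47%, or 0.263% without mouse 6) in 18. The other 5 were rare: TRAV9D-3 had 266 counts in 10 tumors, TRAV9N-4 had 200 in 6, TRAV9N-3 had 78 in 9, TRAV9D-2 had 45 in 5 and TRAV9N-2 had 12 in 3. Of the TRAV9N-4 counts, 125 were in tumor 2 of mouse 4.

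The segment in the lead changed from mouse to mouse. TRAV9-1 led in mice 6, 14, 17, 3, 11 and 10, at 35.9% to 86.9% of TRAV9 counts. TRAV9D-4 led in mice 4, 7 and 16, TRAV9-3 in mice 12 and 20, and TRAV9-2 in mouse 19. TRAV9D-4 reached 32.1% and 30.7% of all alpha counts in the tumors of mouse 16, where its median over the 24 tumors was 1.34% and its lowest value 0.0304%. TRAV9-1 reached 14.8% and 16.1% in the tumors of mouse 6, against a median of 2.05%. TRAV9-2 reached 11.3% in tumor 2 of mouse 16 and 6.46% in tumor 2 of mouse 19, against a median of 0.561%. Within each of the 4 groups, at least 2 different segments led. By an exact permutation test of 3 time-matched against 9 time-separated mice, run on all 98 TRAV segments, 0 were called (0% of segments) at an adjusted p under 0.05, and 3 had an unadjusted p under 0.05, none of them a TRAV9 segment. The lowest unadjusted p in the family was 0.118, for TRAV9-1 (mean 6.65% in time-matched and 2.36% in time-separated mice), and without mouse 6 that difference was -0.0926 percentage points.

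The share of counts taken by the whole family was next compared between tumors. In time-matched mice it was 16.7% and 18.8% in tumors 1 and 2 of mouse 6, 1.51% and 1.66% in mouse 12, then 7.44% and 6.86% in mouse 14. In untreated time-separated mice it was 8.73% and 6.45% in mouse 4, 8.64% and 10.1% in mouse 17, then 5.96% and 13.5% in mouse 19. At 0.5 mg/kg it was 4.11% and 5.41% in mouse 3, 4.50% and 2.95% in mouse 11, then 7.21% and 3.27% in mouse 20. At 2 mg/kg it was 6.57% and 6.87% in mouse 7, 6.96% and 13.1% in mouse 10, then 37.2% and 45.3% in mouse 16. Mouse 16 was the highest and mouse 12 the lowest in both tumors. Exact 95% binomial intervals ran from 37.0% to 37.4% and from 45.1% to 45.6% for the tumors of mouse 16, and from 6.57% to 7.18% for tumor 2 of mouse 7, the shallowest library; such intervals cover counting error only. Tumors of 1 mouse differed by a median of 1.80 percentage points over 12 pairs, and tumors of different mice by 5.24 over 264 pairs.

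**Figure D1:**
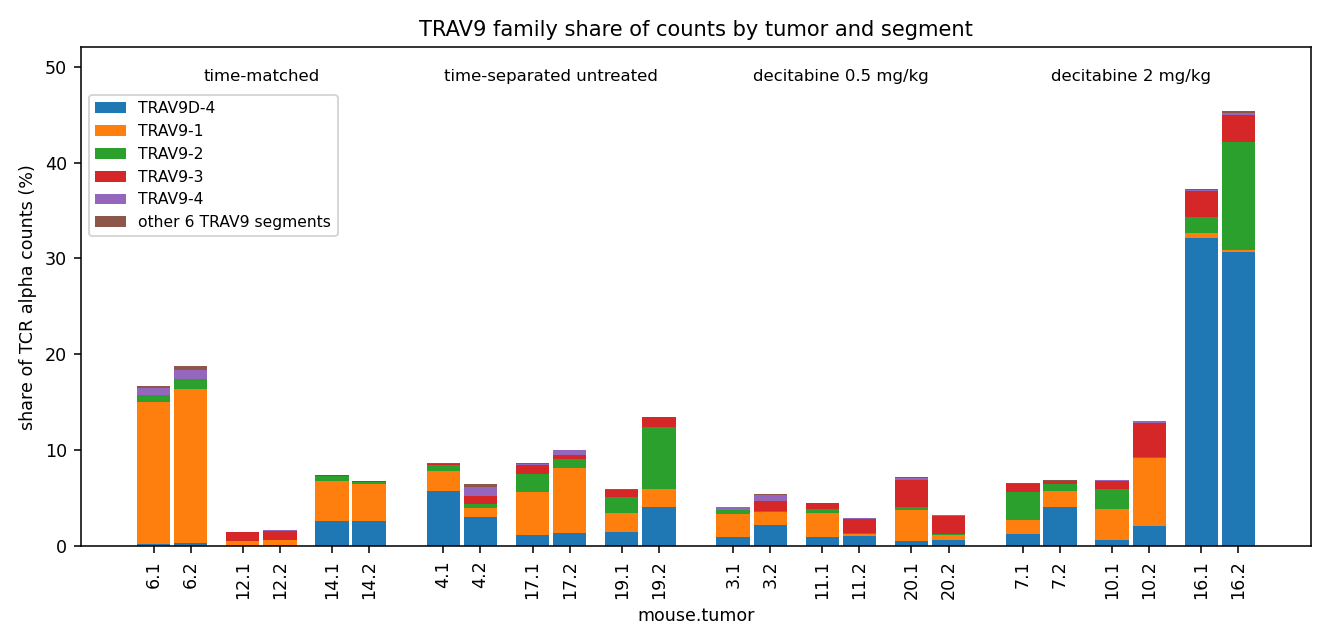
Bars give the TRAV9 share of all retained TCR alpha counts (%) in each tumor, stacked by segment and ordered by group; the horizontal axis names mouse and tumor. Both tumors of mouse 16 stand at 37.2% and 45.3%, mostly TRAV9D-4, and both tumors of mouse 6 at 16.7% and 18.8%, mostly TRAV9-1.

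Averaged over its tumors, the family ranked from place 1 of 21 TRAV families (mouse 16) to place 8 (mouse 20), and it took place 3 by mean share over all 12 mice (10.4% ± 10.5, SD, n = 12), place 4 by median, and place 3 or higher in mice 6, 14, 10 and 16. The mean was 8.83% ± 8.21 (SD, n = 3) in time-matched and 10.9% ± 11.6 (SD, n = 9) in time-separated mice. The difference of -2.11 percentage points was within the spread between mice (exact permutation test, two-sided, p = 0.809, Benjamini-Hochberg adjusted over 21 families 0.85). It was 1.68 without mouse 16 and 1.51 without mouse 12. No family was called in this comparison (0% of 21), and 1 had an unadjusted p under 0.05.

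Among the time-separated groups the mean share was 8.89% ± 1.14 in untreated mice, 4.58% ± 0.774 at 0.5 mg/kg and 19.3% ± 19.1 at 2 mg/kg (SD, n = 3 each). The 3 mice at 0.5 mg/kg (3.73% to 5.24%) lay below the 3 untreated mice (7.59% to 9.72%) and below the 3 mice at 2 mg/kg (6.72% to 41.2%). By single tumor, 0.5 mg/kg (2.95% to 7.21%) overlapped with untreated mice (5.96% to 13.5%) and with 2 mg/kg (6.57% to 45.3%). By share of counts per mouse, groups that did not overlap were seen in 14.3% of 21 families for 0.5 mg/kg against untreated mice. For 2 mg/kg against 0.5 mg/kg they were seen in 4.76%, that is in TRAV9 alone. Each of these differences, -4.31 and 14.8 percentage points, had p = 0.1 in an exact permutation test, the smallest that 3 mice against 3 allow. Without mouse 16 the difference between the doses was 3.79 points. The 2 mg/kg group differed from untreated mice by 10.4 points (p = 0.7 in the exact permutation test), or by -0.522 without mouse 16, and the time-matched group by -0.066 (p = 1). The exact permutation test over the 3 groups gave p = 0.136, adjusted p = 0.57, with 0% of 21 families called and 0 with an unadjusted p under 0.05. Leaving out mouse 7 took the adjusted p to 0.0375 and leaving out mouse 16 to 0.60.

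The share of distinct clonotypes varied less between mice than the share of counts, from 4.59% to 23.1% against 1.58% to 41.2%. In libraries thinned to 26623 counts, TRAV9 made up 10.7%, 4.59% and 9.29% of clonotypes in time-matched mice 6, 12 and 14, and 9.06%, 9.97% and 10.3% in untreated mice 4, 17 and 19. It made up 6.64%, 5.90% and 6.49% in mice 3, 11 and 20 at 0.5 mg/kg, and 8.10%, 10.1% and 23.1% in mice 7, 10 and 16 at 2 mg/kg. Mouse 16 was again highest. In mouse 16, 705 of 931 TRAV9 sequences were 1-base neighbours of larger ones, and merging neighbours took its share to 11.8%. Time-matched and time-separated mice differed by -1.76 percentage points (exact permutation test, p = 0.577, adjusted p = 0.834, 0% of 21 families called and 1 with an unadjusted p under 0.05). The 3 time-separated groups gave p = 0.139 by the exact permutation test, adjusted p = 0.418, with 0% called and 1 family with an unadjusted p under 0.05. With neighbours merged the first difference was -0.96 points, and that of 2 mg/kg from untreated mice was 0.648 in place of 4.00; neither comparison passed the exact permutation test (adjusted p = 0.942 and 0.42). Mice at 0.5 mg/kg were again all below untreated mice, as in 19% of families, and stayed below them with neighbours merged (6.34% to 7.36% against 8.75% to 9.12%). They were also all below mice at 2 mg/kg, and 14.3% of families had no overlap between the doses.

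Few clones carried the family in each mouse. The largest TRAV9 clonotype held 16.2% (mouse 11) to 55.2% (mouse 6) of TRAV9 counts, and the largest 5 held 55.7% to 84.4%. Outside its largest 5 clonotypes the family held 0.257% of counts in mouse 12, 1.56% to 3.46% in the other mice but 1, and 6.42% in mouse 16. The log2 ratio of the share of counts to the share of clonotypes was above 0 in 2 of 12 mice, mice 6 (0.73) and 16 (0.85), and averaged -0.22 ± 0.61 (SD, n = 12; exact sign-flip permutation test, adjusted p = 0.285), -0.12 with neighbours merged and -0.11 without mouse 12. Of 17 families tested, 12 (70.6%) were called in that test, TRAV9 not among them, and all 12 had fewer counts than their clonotypes would give.

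The largest clonotype of each mouse, and the one whose share differed by the most percentage points between its tumors, are described by their V and J segments and their CDR3 junctions. In the sequences below lower case marks bases that match the consensus end of the V or J segment in these data, and capitals mark bases that match neither. They are shown as the largest TRAV9 clones of mice in which a clone was abundant or its share changed. Because the most different clonotype was picked by percentage points, rarer clonotypes of the same mouse could differ by a larger fold.
TRAV9D-4 with TRAJ53, largest in mice 16 and 14: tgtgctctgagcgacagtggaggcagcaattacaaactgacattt
TRAV9-1 with TRAJ40, largest in mice 6 and 17: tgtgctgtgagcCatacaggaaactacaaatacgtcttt
TRAV9-1 with TRAJ5, largest in mouse 10: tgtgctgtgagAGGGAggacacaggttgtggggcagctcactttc
TRAV9-2 with TRAJ39, largest in mouse 19: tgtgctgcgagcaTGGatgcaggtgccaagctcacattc
TRAV9-2 with TRAJ32, most different in mouse 16: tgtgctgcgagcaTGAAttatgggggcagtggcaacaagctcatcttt
TRAV9D-4 with TRAJ34, largest in mouse 7: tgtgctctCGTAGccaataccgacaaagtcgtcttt
The first of these had no base outside the V and J consensus, and the one after it had 1.

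In the time-matched mice the largest TRAV9 clonotypes had nearly the same share in both tumors. The TRAV9-1 with TRAJ40 clonotype of mouse 6 made up 9.51% (exact 95% interval 9.39 to 9.64) and 10.1% (9.92 to 10.2) of counts and ranked first among all alpha clonotypes of both tumors. That of mouse 12 (TRAV9-3 with TRAJ33) made up 0.731% and 0.751%, and that of mouse 14 (TRAV9D-4 with TRAJ53) made up 1.39% and 1.60%. The clonotype of mouse 14 that differed by the most percentage points (TRAV9-1 with TRAJ40) stood at 0.886% and 0.602%, a 1.47-fold gap. In mouse 12 the one that did so (TRAV9-1 with TRAJ16) stood at 0.459% and 0.496%, and in mouse 6 it was the largest one itself.

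In the time-separated mice the widest gaps in percentage points were larger than in the time-matched mice, with no test, although 8 of the 9 largest clonotypes were found in both tumors. In untreated mouse 19 the TRAV9-2 with TRAJ39 clonotype had 0 of 87159 counts in tumor 1, which allows a share of up to 0.00344%, and 5.90% (exact 95% interval 5.75 to 6.06) in tumor 2, at least 1715-fold higher. In mouse 4 the largest clonotype (TRAV9D-4 with TRAJ17) stood at 2.75% and 1.56%, while another of the same V and J differed 6.11-fold, at 1.90% and 0.311%. In mouse 17 the TRAV9-1 with TRAJ40 clonotype was both the largest and the most different in percentage points, at 1.89% and 3.26%.

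At 0.5 mg/kg the largest clonotypes differed by 1.15-fold to 1.84-fold between tumors. They stood at 1.95% and 1.06% in mouse 3 (TRAV9-1 with TRAJ15), at 0.765% and 0.441% in mouse 11 (TRAV9D-4 with TRAJ30), and at 1.5% and 1.30% in mouse 20 (TRAV9-3 with TRAJ40). The most different were other clones of these mice. In mouse 3 it was the same TRAV9D-4 with TRAJ53 clonotype that led in mice 14 and 16, at 0.102% and 1.08%. In mouse 11 (TRAV9-1 with TRAJ33) it had 0.861% in tumor 1 and 0 of 96375 counts in tumor 2, and so was at least 276.6-fold higher in tumor 1. In mouse 20 (TRAV9-1 with TRAJ9) it had 1.24% and 0.00692%.

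At 2 mg/kg the TRAV9D-4 with TRAJ53 clonotype of mouse 16 made up 15.2% (exact 95% interval 15.0 to 15.3) and 17.9% (17.7 to 18.1) of counts and ranked first in both tumors. In the same mouse the TRAV9-2 with TRAJ32 clonotype differed 93-fold, at 0.0806% and 7.49%. The largest clonotype of mouse 10 (TRAV9-1 with TRAJ5) stood at 2.19% and 6.30%, and that of mouse 7 (TRAV9D-4 with TRAJ34) at 1.04% and 3.95%. Over the 12 mice, 11 of the largest clonotypes were found in both tumors and 9 ranked among the first 10 of a tumor. The 3 of the time-matched mice were within 2-fold between tumors, and 3 of the 9 of the time-separated mice were not. The most different clonotypes were picked for their gap, so their folds carry no test.

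**Figure D2:**
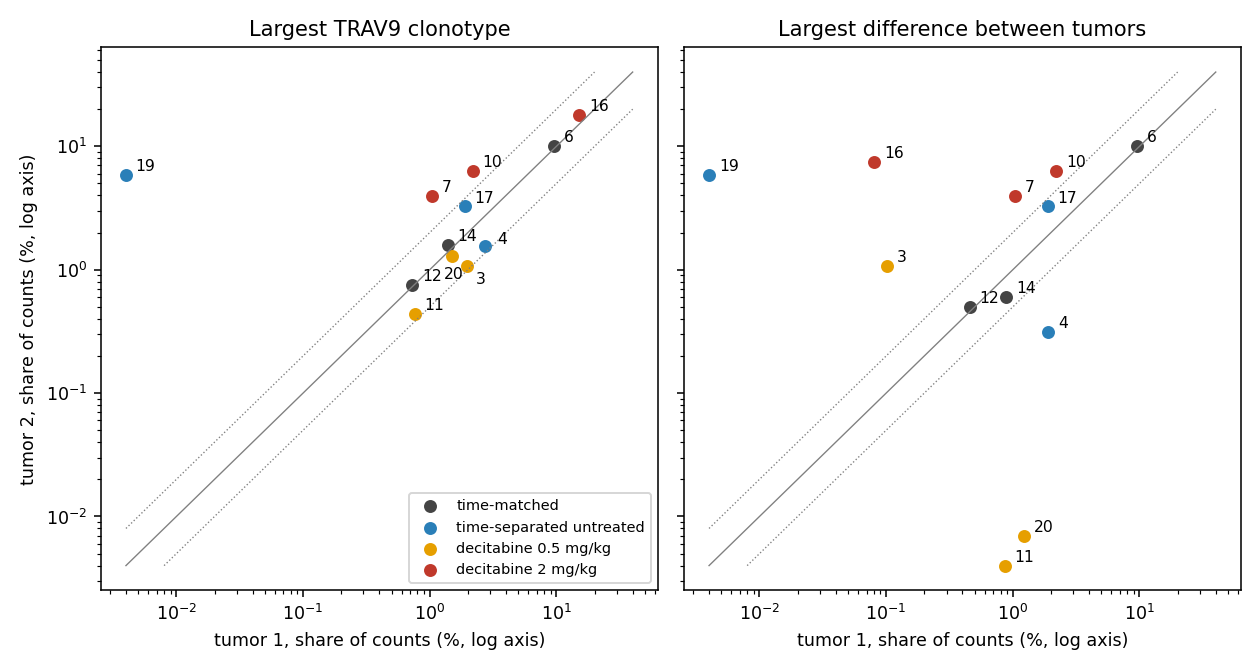
Each point is 1 mouse, with the share of counts (%, log axes) of a TRAV9 clonotype in tumor 1 and in tumor 2; the left panel shows the largest clonotype and the right panel the one that differed by the most percentage points. The solid line marks equal shares and dotted lines a 2-fold difference, and a count of 0 is drawn at the lower edge. Time-matched mice 6, 12 and 14 lie near equality in both panels, while mice 19, 16, 3, 20 and 11 lie far from it on the right.

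The overlap of TRAV9 repertoires between the tumors of a mouse was measured by the Morisita-Horn index, which is 0 with no shared clonotype and 1 with equal frequencies. It was 0.996, 0.993 and 0.964 in time-matched mice 6, 12 and 14. It was 0.778, 0.868 and 0.285 in untreated mice 4, 17 and 19, 0.570, 0.356 and 0.669 in mice 3, 11 and 20 at 0.5 mg/kg, and 0.408, 0.763 and 0.905 in mice 7, 10 and 16 at 2 mg/kg. Every time-matched mouse was above every time-separated one, which was so in 11.8% of the 17 families tested without thinning (TRAV5 and TRAV9). The means were 0.985 ± 0.0177 (SD, n = 3) and 0.622 ± 0.229 (SD, n = 9), a difference of 0.36 with p = 0.0227 in an exact permutation test and an adjusted p of 0.0682 over the 3 measures of difference between tumors, which misses the threshold of 0.05. Without the largest TRAV9 clonotype of each mouse the difference was 0.538 with an adjusted p of 0.0136 in the exact permutation test. Over all other clonotypes the index was 0.956 ± 0.0298 and 0.596 ± 0.263, and the TRAV9 index was the higher in 9 of 12 mice, widely so in mouse 4 (0.778 against 0.373) and the reverse in mouse 7 (0.408 against 0.890).

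**Figure D3:**
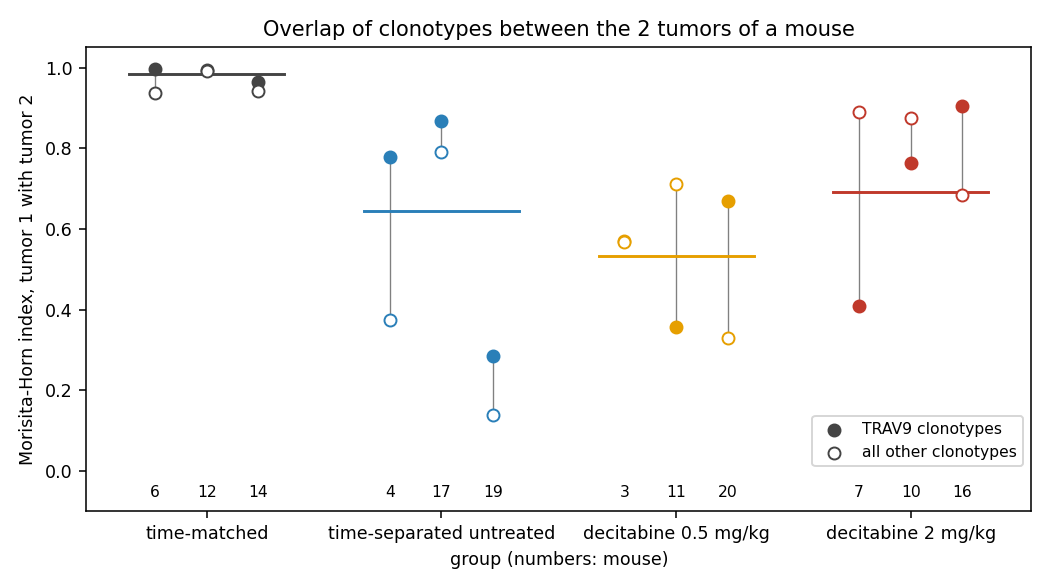
Filled points give the Morisita-Horn index between tumors 1 and 2 of each mouse for TRAV9 clonotypes, open points the same for all other clonotypes, both in libraries thinned to 26623 counts, and horizontal lines the group mean for TRAV9. The 3 time-matched mice sit between 0.964 and 0.996 for TRAV9, and the 9 time-separated mice between 0.285 and 0.905.

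Clonotypes listed in a single tumor of their mouse held a share of TRAV9 counts of 9.08% ± 3.03 (SD, n = 3) in time-matched and 27.9% ± 18.8 (SD, n = 9) in time-separated mice (exact permutation test, p = 0.123, adjusted p = 0.159). It ran from 2.79% in mouse 16 to 66.8% in mouse 19. The family's share of counts differed between tumors by 0.928 ± 0.989 percentage points in time-matched and 3.62 ± 2.94 in time-separated mice (SD; p = 0.159 in the exact permutation test, adjusted p = 0.159). Neither difference passed the exact permutation test.

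TRAJ40 was the J segment with the largest share among TRAV9 clonotypes. J segments are numbered along the locus, with the high numbers nearest to the V segments. Taken over clonotypes and averaged over tumors and mice, TRAJ40 made up 13.8% ± 11.3 of TRAV9 and 4.91% ± 1.32 of other clonotypes (SD, n = 12; above 0 in 9 of 12 mice as a difference; adjusted p = 0.044 over 45 TRAJ segments by an exact permutation of signs). In TRAV9 the share was lowest in mouse 11 (3.51%) and highest in mouse 6 (43.1%). Merging neighbours gave 9.82% ± 5.10 against 4.84% ± 0.661 (higher in 10 of 12 mice; adjusted p = 0.022 by the same exact test), with 22.8% in mouse 6. The call held in 3 of 12 fits that each left out 1 mouse, the adjusted p otherwise being 0.0635 to 0.0879. It was lost with single counts kept (adjusted p = 0.0597 in the exact test) and weighted by counts (0.0559). Of all 45 TRAJ segments, 10 (22.2%) were called, 1 higher (2.22%) and 9 lower (20%) in TRAV9. Without 1 mouse 4 to 9 were called, the fewest without mouse 16 or mouse 20. With neighbours merged 6 (13.3%) were called, and 3 were called both ways: TRAJ40, TRAJ30 and TRAJ58.

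TRAJ30 made up 2.33% ± 2.99 of TRAV9 and 7.70% ± 4.93 of other clonotypes (lower in 11 of 12 mice; adjusted p = 0.0408 in the exact sign-flip test), or 2.05% and 5.16% with neighbours merged; its call, too, held in 3 of the 12 fits without 1 mouse, and was lost with single counts kept (adjusted p = 0.0536 in the exact test). TRAJ58, chosen after its values were seen, was lower in TRAV9 in each of the 12 mice, at 0.306% against 1.35% (adjusted p = 0.022 in the exact test, and p before adjustment 0.000488, the smallest the test allows), and its call held in all 12 fits without 1 mouse. TRAJ34 made up 6.83% ± 8.26 against 2.70% ± 2.10 (adjusted p = 0.176 in the exact test), a difference of 4.13 percentage points. The difference was 1.84 without mouse 7, and TRAJ34 was called in 1 of the 12 fits without 1 mouse, that without mouse 6. Merging neighbours gave 6.47% ± 3.81 against 2.78% ± 0.850, higher in 11 of 12 mice (adjusted p = 0.022 in the exact test). TRAJ49 was lower at 3.01% against 6.39% (adjusted p = 0.0461 in the exact test), but with neighbours merged had 3.90% against 5.57% and an adjusted p of 0.243; its call held in 1 of the 12 fits without 1 mouse. TRAJ53 (5.91% of TRAV9 clonotypes), TRAJ42 (4.96%) and TRAJ33 (4.61%) were also among the commonest partners, and their differences from other clonotypes, of 2.07, 3.02 and 1.92 percentage points, did not pass the exact test (adjusted p = 0.733, 0.284 and 0.615). The TRAJ53 difference was 0.242 without mouse 16 and 1.35 without mouse 14, that of TRAJ42 was 1.90 without mouse 16 and 1.91 without mouse 19, and that of TRAJ33 was 0.533 without mouse 12.

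**Figure D4:**
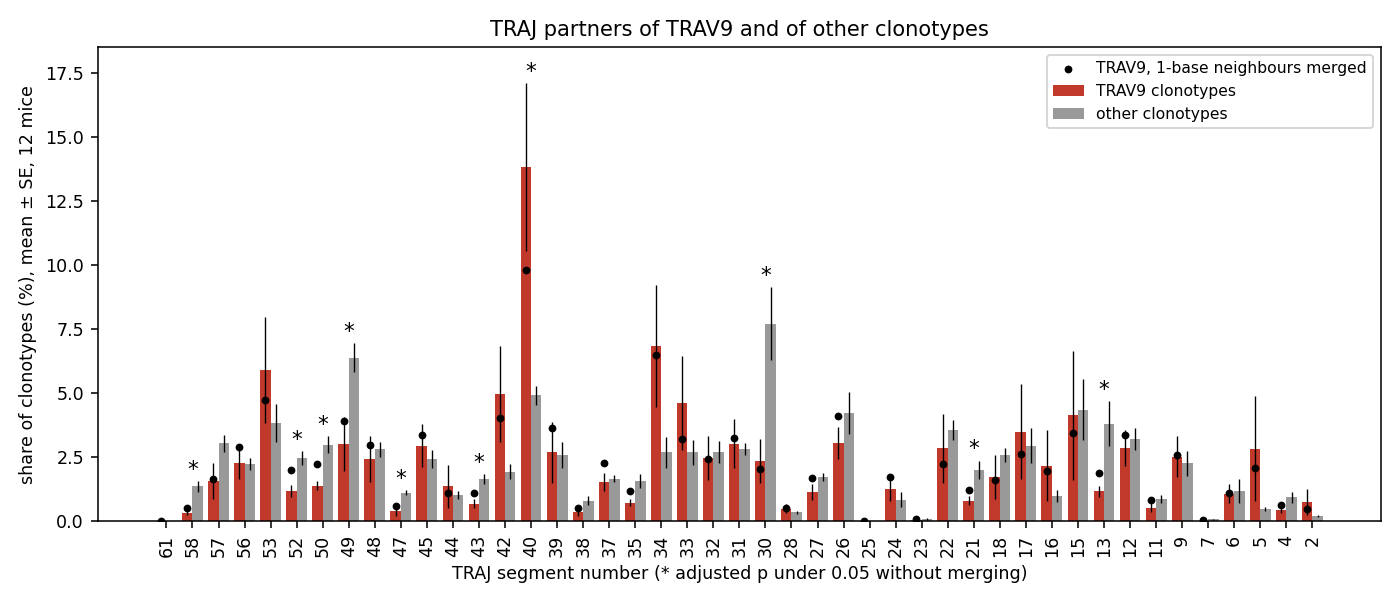
Bars give the share of clonotypes (%) that used each TRAJ segment among TRAV9 and other clonotypes, as mean and SE over 12 mice, with segments in order from TRAJ61, nearest to the V segments, to TRAJ2; black points give TRAV9 after merging of 1-base neighbours, and an asterisk marks an adjusted p under 0.05 without merging. TRAJ40 reaches 13.8% in TRAV9 against 4.91% in others, and TRAJ30 2.33% against 7.70%.

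The J partners were not the same for all TRAV9 segments. With neighbours merged, and each clonotype counted once per mouse, TRAJ40 was the commonest partner of TRAV9-1 (11.1% of 861), TRAV9-3 (12.1% of 365), TRAV9-4 (16.7% of 120) and TRAV9-2 (7.13% of 435). TRAV9D-4 used it in 1.89% of 264, and paired most with TRAJ53 (14.0%) and TRAJ42 (13.3%). Without merging TRAJ40 made up 18.2% of TRAV9-1, 28.6% of TRAV9-3 and 28.1% of TRAV9-4, but 6.05% of TRAV9-2, which was then led by TRAJ32 (10.8%), and TRAV9D-4 was led by TRAJ53 (21.4%) and TRAJ42 (18.9%). These shares are descriptions, since clones of 1 mouse share their source and some segments their reads. The mean TRAJ number of TRAV9 clonotypes differed from that of others by -0.19 ± 3.01 (SD, n = 12; adjusted p = 0.873 in the exact sign-flip test), where 52.9% of 17 families were called without merging. With neighbours merged the difference was -0.66. The CDR3 was 0.111 ± 0.390 residues longer (SD, n = 12; adjusted p = 0.419 in the exact sign-flip test, 52.9% of families called), or 0.0516 without mouse 3 and 0.057 without mouse 16.

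Most TRAV9 clonotypes were seen in 1 mouse. Of 3357, 283 (8.43%) were found in at least 2 mice, 79 in at least 3 and 26 in at least 4, and the most widely found was in 7. Of other clonotypes 8.04% were found in at least 2 mice, and the most widely found were in all 12. With neighbours merged the shares were 7.54% and 9.24%, and TRAV9 stood at place 7 from the lowest of 21 families. With neighbours merged, TRAV9 sequences of clonotypes in 1 mouse had a median of 4 bases that matched neither the V nor the J consensus (quartiles 2 and 7), those in 2 mice 3 (2 and 5), and those in 3 or more mice 2 (1 and 3).

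The junctions of the most widely found clonotypes are printed next, to show which mice had the same nucleotides and which reached the same residues by others. Neighbours were merged for these junctions, and capitals again mark bases that match neither consensus.
TRAV9D-4 with TRAJ42, mice 3, 16, 17, 19 and 20: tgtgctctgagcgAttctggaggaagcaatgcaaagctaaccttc
The same residues in mouse 4: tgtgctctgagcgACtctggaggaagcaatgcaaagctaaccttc
The same residues in mouse 6: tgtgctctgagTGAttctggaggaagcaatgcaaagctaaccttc
TRAV9-3 with TRAJ40, mice 10, 11, 12, 19 and 20: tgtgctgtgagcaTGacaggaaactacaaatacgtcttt
TRAV9-1 with TRAJ40, mice 7, 17 and 20: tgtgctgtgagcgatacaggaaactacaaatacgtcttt
The same residues in mouse 14: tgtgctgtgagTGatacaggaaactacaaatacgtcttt
TRAV9-1 with TRAJ12, mice 11 and 12: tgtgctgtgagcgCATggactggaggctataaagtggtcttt
The same residues in mice 3 and 12: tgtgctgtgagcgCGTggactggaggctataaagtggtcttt
The same residues in mouse 17: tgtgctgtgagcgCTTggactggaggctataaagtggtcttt
The same residues in mouse 12: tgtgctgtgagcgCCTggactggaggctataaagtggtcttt
After merging of neighbours, the TRAV9D-4 with TRAJ53 clonotype had the single sequence given above in all its 6 mice.

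The TRAV9D-4 with TRAJ42 clonotype was the most widely found, in 7 mice. It made up 9.51% and 8.0% of counts in tumors 1 and 2 of mouse 16, 1.13% and 2.88% in mouse 19, then 0.530% and 0.856% in mouse 17. It made up 0.322% in tumor 2 of mouse 3 and 0.0683% in tumor 2 of mouse 4, with 0 counts in tumor 1 of either. Mouse 6 had 6 and 17 counts of it and mouse 20 had 2 counts in tumor 1. Its highest shares were thus in treated and untreated time-separated mice, namely mice 16, 19 and 17, while time-matched mice had at most 17 counts in a tumor. Time-separated mice 7, 10 and 11 had 0 counts in both tumors, as had time-matched mice 12 and 14.

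The TRAV9D-4 with TRAJ53 clonotype was found in 6 mice. Beside 15.2% and 17.9% in mouse 16, it made up 1.39% and 1.60% in mouse 14, 0.102% and 1.08% in mouse 3, then 0.366% and 0.305% in mouse 17. Mouse 6 had 31 and 17 counts and mouse 12 had 2 in each tumor. Mice 3, 6, 16 and 17 had both of these TRAV9D-4 clonotypes. Whether the lowest of these counts came from cells of those tumors was not tested.

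The TRAV9-3 with TRAJ40 clonotype was found in 5 mice. It stood at 0.582% and 3.14% in tumors 1 and 2 of mouse 10, 1.5% and 1.30% in mouse 20, 0.0333% and 0.220% in mouse 19, 0.0528% and 0.0684% in mouse 12, with 13 counts in tumor 2 of mouse 11. The widely found TRAV9-1 with TRAJ40 clonotype, in 4 mice, stood at 0.886% and 0.602% in mouse 14, 0.0428% and 1.32% in mouse 7, 0.119% and 0.338% in mouse 17, then 0.0161% and 0.133% in mouse 20. The leading clonotype of mice 6 and 17, also TRAV9-1 with TRAJ40, was found in these 2 mice with the same main nucleotide sequence. The CDR3s of these 3 clonotypes differ in the fifth residue alone, which is methionine, aspartate and histidine in the order given.

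Counted after this was seen, 11 CDR3s with these residues apart from the fifth were found in 11 of 12 mice after merging. They held a mean of 10.4% of counts in mouse 6, 3.06% in mouse 17, 2.04% in mouse 10, 1.73% in mouse 20, 0.871% in mouse 14 and 0.714% in mouse 7. They held 0.145% in mouse 19, 0.0654% in mouse 12, 0.0218% in mouse 16, 0.00674% in mouse 11 and 0.00614% in mouse 4, and mouse 3 had 0 counts. In mice 4 and 11 they were found in tumor 2 only and in mouse 16 in tumor 1 only. Counted with their V segments they were 24 clonotypes over 6 TRAV9 segments, or 13.9% of the 173 TRAV9 clonotypes with TRAJ40 after merging. A CDR3 listed under several segments counts more than once in this share.

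The other widely found clonotypes were rarer. A TRAV9-2 with TRAJ52 and a TRAV9-3 with TRAJ56 clonotype were each found in 5 mice with the same nucleotides throughout, at no more than 0.0205% and 0.0359% of a tumor. A TRAV9-2 with TRAJ34, a TRAV9-1 with TRAJ34 and the TRAV9-1 with TRAJ12 clonotype were found in 4 mice each, the last through 4 nucleotide sequences that differ within 1 codon. A second TRAV9D-4 with TRAJ42 clonotype was also listed in 4 mice, but each time as a 1-base neighbour of the most widely found one, and was in 0 mice after merging.

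**Figure D5:**
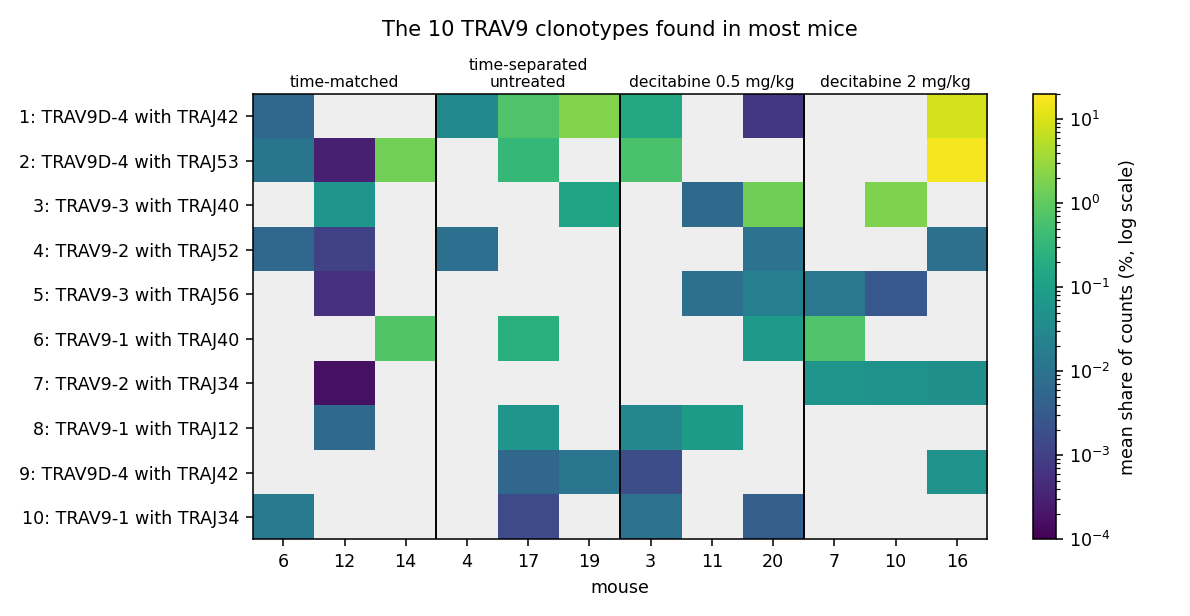
Colour gives the mean share of counts (%, log scale) over both tumors of each mouse for the 10 TRAV9 clonotypes found in most mice, numbered and named by V and J segment; grey marks no retained counts. Rows 1 (TRAV9D-4 with TRAJ42) and 2 (TRAV9D-4 with TRAJ53) are brightest in mouse 16, and row 9 is the 1-base neighbour of row 1.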

How the data were processed

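Whole-tumor RNA was made into TCR alpha libraries with a SMART-Seq kit that carries molecular identifiers (UMIs), and the authors processed reads, ran an analysis based on UMIs and called clonotypes in the Cogent NGS Immune Profiler. The deposited tables give a read count per sequence with V and J segment, CDR3 and a stop mark; the authors call the unit reads, and how UMIs entered these counts and which genome build was used are not given in the sources used here. The TCR beta tables were not used here.

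Sequences with a stop mark or under 2 counts were left out. Each mouse gave 1 value, the mean of its tumors. The TRAV9 share of clonotypes by mouse, the log2 ratio of counts to clonotypes, the Morisita-Horn index by mouse and the share of counts in clonotypes of a single tumor used libraries thinned to 26623 counts (20 draws); all other values used full libraries. Exact permutation tests over mice were two-sided. Benjamini-Hochberg adjustment ran over all families, all TRAV segments, all TRAJ segments or the 3 measures of difference between tumors. Tests of 3 mice against 3 were not adjusted. Intervals are exact (Clopper-Pearson), cover counting error only, and 3 counts set the limit of a count of 0. V and J consensus bases were those in at least 50% of the distinct sequences of a segment with at least 20, after merging of neighbours. The scripts were tested on simulated data. Python 3.11.15 with numpy 2.4.6 and scipy 1.17.1 was used.

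The members, lists and tests were chosen with earlier results of these data known. The text names every TRAV9 segment with a member, the largest TRAV9 clonotype of each mouse and the one with the largest difference between its tumors in percentage points, the 10 clonotypes found in most mice (ties by summed share outside the top mouse), and the 5 TRAJ segments with the largest share and the 5 with the largest difference. Alternatives changed the count minimum, stop filter, clonotype definition, thinning, weighting, the largest clones and each mouse in turn. Replicates are separate mice.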

Additional observations from a re-analysis of the deposited data

Results flagged for a closer look

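Among the 9 time-separated mice, mouse 16 (2 mg/kg decitabine) stood far above the others in 3 measures by Dixon's test: the TRAV9 share of counts (41.2%), the TRAV9 share of clonotypes (23.1%) and the log2 ratio of these shares (0.85). The gap to the next mouse was 0.832, 0.744 and 0.61 of the whole range. In all, 16 groups of values were tested this way and 3 values were past the limit, where chance flags about 1 in 20 groups. All 3 belonged to mouse 16, and the log2 ratio is formed from the other measures, so they are not independent flags. With 1-base neighbours merged the share of clonotypes in mouse 16 was 11.8%.

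Sequences with a stop mark, which no comparison above used, held TRAV9 counts in every tumor. TRAV9 made up 1.11% to 26.5% of stop-marked counts (median 5.22%), where 3 counts amount to at most 0.0397%. The highest value was in tumor 2 of mouse 16, where a single TRAV9-1 to TRAJ56 sequence, 43 bases long and so out of frame, held 6815 of 44148 stop-marked counts (15.4%).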

How the results depend on the processing

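With 3 mice a group, the exact permutation test between 2 groups could not go below p = 0.1, and tumor 2 of mouse 7, with 26623 counts, set the depth of all thinned measures. Of the alternative values for the 16 main results, 230 kept direction and call or stayed near in size, 15 turned direction, 13 moved in size and 2 newly passed the threshold. Some of the 230 could not change. Leaving out a mouse that is not in a comparison repeats its value, and comparisons of 3 mice with 3 could not be called. The number is therefore no measure of how stable the results were. The cause of the changes was not tested.

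Leaving out each mouse in turn moved the following values. The difference of time-matched from time-separated mice ranged from -6.57 (without mouse 6) to 1.68 (without mouse 16) percentage points for the share of counts and from -3.03 to 0.0394 for the share of clonotypes. Against untreated time-separated mice alone it ranged from -4.52 to 3.55. The difference of 2 mg/kg from untreated mice ranged from -0.522 (without mouse 16) to 16.7 (without mouse 7) for counts and from -0.664 to 6.84 for clonotypes. The exact permutation test over the 3 groups passed only without mouse 7 (adjusted p = 0.0375). The difference of mean TRAJ number ranged from -0.583 to 0.336, and was 0.293 with single counts kept and 1.25 weighted by counts. From 4 to 9 TRAJ segments were called, against 10 with all mice, and 6 both with single counts kept and with neighbours merged.

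For single segments, time-matched minus time-separated ranged from -0.0926 to 7.33 percentage points for TRAV9-1, -0.189 to 0.222 for TRAV9-4, -0.0297 to 0.112 for TRAV9D-1, -0.0114 to 0.000411 for TRAV9N-4, -0.000659 to 0.0022 for TRAV9N-3 and -0.000498 to 0.000117 for TRAV9N-2. With stop-marked sequences kept TRAV9N-3 had -0.00024.

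The difference in the Morisita-Horn index passed without the largest TRAV9 clonotype of each mouse (0.538) and ranged from 0.32 to 0.397 when mice were left out. TRAV9 clonotypes in at least 2 mice numbered 109 with at least 10 counts and 145 with neighbours merged, against 283.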
